A study of Homo sapiens with 6 samples.

Results

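S100 proteins and annexins were followed in RNA-seq counts of CAL27, an established line from a human squamous carcinoma of the mouth. The 10 genes were taken by symbol from the deposited table of 23384 features, 6 of them S100 genes (S100A2, S100A6, S100A10, S100A11, S100A14 and S100A16) and 4 annexin genes (ANXA1, ANXA2, ANXA3 and ANXA5). All 10 were found once each and all 10 were among the 11851 genes with enough counts to be tested. The control group was 3 libraries of wild-type CAL27 cells that received an empty vector, and the other group was 3 libraries of CAL27 cells that received a plasmid carrying TNFAIP2, a gene induced by tumour necrosis factor. Both groups were 1 cell line in serum-supplemented DMEM, and neither the time after the plasmid nor the picking of a clone is stated in the labels. Nothing in the labels ties the libraries to separate cultures, and the p-values may thus reflect technical spread. Going by its title, the series concerned TNFAIP2, NF-κB signalling and lymph node spread of this cancer.

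S100 proteins are small calcium sensors with paired EF-hand motifs. Most act as dimers that open a binding face when calcium is bound. Annexins bind acidic phospholipids of membranes when calcium rises, through a core of annexin repeats, and take part in membrane repair, vesicle traffic and the linking of actin to membranes. The families meet in shared complexes, the best known being that of ANXA2 with S100A10 at the inner face of the plasma membrane, where it binds the giant scaffold AHNAK. In squamous epithelium, S100A2 is a basal cell protein, and most S100 genes lie together in the epidermal differentiation region of chromosome 1.

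Libraries held between 3092261 and 3527161 counts. TNFAIP2 itself was not higher under its own name, with 194, 112 and 162 counts in controls 1 to 3 and 194, 152 and 142 in the libraries labelled overexpression, so the counts do not check the labels and groups are named here as labelled. Squamous epithelial markers were all present, 8 of 8, with summed levels of 972 to 1308 CPM (a count relative to the TMM-scaled size of its library) in controls and 1100 to 1335 CPM in the libraries labelled overexpression. Fibroblast markers summed to 1.08 to 3.24 and 1.75 to 5.59 CPM, with COL3A1, DCN and LUM absent from the table. Leukocyte markers summed to 4.34 to 6.78 and 4.37 to 6.12 CPM without PTPRC, and endothelial ones, of which CDH5 alone was in the table, to 5.42 to 9.44 and 4.70 to 11.9 CPM. The melanocyte and neural list summed to 157 to 210 and 136 to 175 CPM, nearly all of it PMEL, which shares 89 exonic bases with CDK2 on the other strand, while S100B was absent.

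Many genes of this table hold only a small part of the counts at their locus, the rest lying on features of the other strand. The own-strand ratio of a library is the median, over 368 features that lie inside a protein-coding gene on the other strand, of the gene's count divided by the count of the feature. It was 0.102, 0.0993 and 0.180 in controls 1 to 3 and 0.198, 0.134 and 0.192 in overexpression-labelled libraries 1 to 3. Control 3 thus lay with the overexpression-labelled libraries and not with the other controls. For the S100 and annexin genes no such partner can be read: no deposited feature with an exon model in GENCODE release 29 shared 50 or more exonic bases with any of the 10 on the other strand, as was also the case for 64.6% of protein-coding genes. The nearest was a lncRNA at S100A6 (ENSG00000238279, chromosome 1, 153533603 to 153535115, plus strand, GRCh38), which shared 23 bases and had 13, 28 and 40 counts in controls and 44, 34 and 45 in the libraries labelled overexpression. What share of the members' reads their own counts hold could therefore not be measured, and all levels below are own-name counts.

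Promoters are shown for the 2 subunits of the ANXA2 and S100A10 complex, whose counts are compared below. S100A2, the S100 gene with the most counts, is also shown, by the one of its 2 windows that holds a motif match. The windows are RefSeq's on GRCh38.p14, from 250 bases before to 50 bases after the start, and capitals mark the TATA box TATAAA, the AP-1 site TGACTCA, the GC box GGGCGG or the NF-κB consensus on either strand.

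ANXA2 promoter, chr15:60397937-60398236, minus strand: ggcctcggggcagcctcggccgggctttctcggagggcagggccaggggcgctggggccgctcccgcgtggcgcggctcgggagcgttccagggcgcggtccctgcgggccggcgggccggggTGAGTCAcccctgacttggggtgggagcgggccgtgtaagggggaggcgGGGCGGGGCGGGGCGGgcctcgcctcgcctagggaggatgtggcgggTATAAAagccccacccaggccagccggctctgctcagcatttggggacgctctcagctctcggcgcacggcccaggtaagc

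S100A10 promoter, chr1:151993810-151994109, minus strand: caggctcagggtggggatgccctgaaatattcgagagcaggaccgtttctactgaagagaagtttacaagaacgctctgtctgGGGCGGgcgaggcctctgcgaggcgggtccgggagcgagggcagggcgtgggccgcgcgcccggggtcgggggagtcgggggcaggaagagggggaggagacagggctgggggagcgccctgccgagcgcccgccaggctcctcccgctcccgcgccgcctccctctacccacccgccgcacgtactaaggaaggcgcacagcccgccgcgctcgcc

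S100A2 promoter, chr1:153565795-153566094, minus strand: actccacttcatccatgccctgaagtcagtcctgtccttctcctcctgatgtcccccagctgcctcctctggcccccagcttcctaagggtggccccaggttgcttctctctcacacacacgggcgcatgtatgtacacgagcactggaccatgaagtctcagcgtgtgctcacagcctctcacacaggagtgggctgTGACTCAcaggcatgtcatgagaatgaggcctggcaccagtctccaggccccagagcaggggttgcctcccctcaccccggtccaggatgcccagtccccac

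All 10 genes matched the RefSeq table, with 12 windows because S100A2 and S100A16 have 2 starts each. TATAAA was found in 2 of the 12 windows (ANXA1 and ANXA2), 31 bases before the start in both, and in 11.5% of all 35116 windows of this length. TGACTCA was found in 2 of the 12 windows, against 4.95% of all windows. It lay 127 bases before the start of ANXA2 and 52 bases before 1 of the 2 starts of S100A2. The other S100A2 window held none of the motifs searched. At least 1 GGGCGG was found in 6 of the 12 windows (S100A6, S100A10, S100A11, S100A16, ANXA2 and ANXA5), against 44.95% of all windows. ANXA2 and S100A6 held 3 copies each, some of them overlapping. The NF-κB consensus was found in 1 of the 12 windows, that of S100A14, and in 11.3% of all windows. These matches are letters in a window and were not tested against the counts.

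Under their own names, S100A2 and ANXA2 had the most counts, and 5 of the 6 S100 genes led per length. CPM divided by exonic length (the union of all exons of a gene, in kilobases) put S100A2 first in controls at 124 ± 10.6 CPM per kb (SD, n = 3), followed by S100A6 at 63.0 ± 5.12. S100A11 at 45.0 ± 9.82 and S100A10 at 43.9 ± 10.4 CPM per kb were not separated by their spread. S100A10 also overlapped S100A16 at 29.8 ± 4.20, and S100A16, ANXA2 at 23.7 ± 6.46, ANXA5 at 19.9 ± 20.6 and ANXA1 at 16.7 ± 5.58 CPM per kb each overlapped the next in the order. S100A14 at 7.59 ± 5.22 and ANXA3 at 3.13 ± 2.13 CPM per kb came last. The order was the same in the libraries labelled overexpression, from 172 ± 8.79 CPM per kb for S100A2 to 3.50 ± 1.21 for ANXA3, and there only S100A16, ANXA2 and ANXA5 overlapped their neighbours. ANXA2 has a union of 8824 exonic bases, more than any other member, and no other measure of length was tried.

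**Figure D1:**
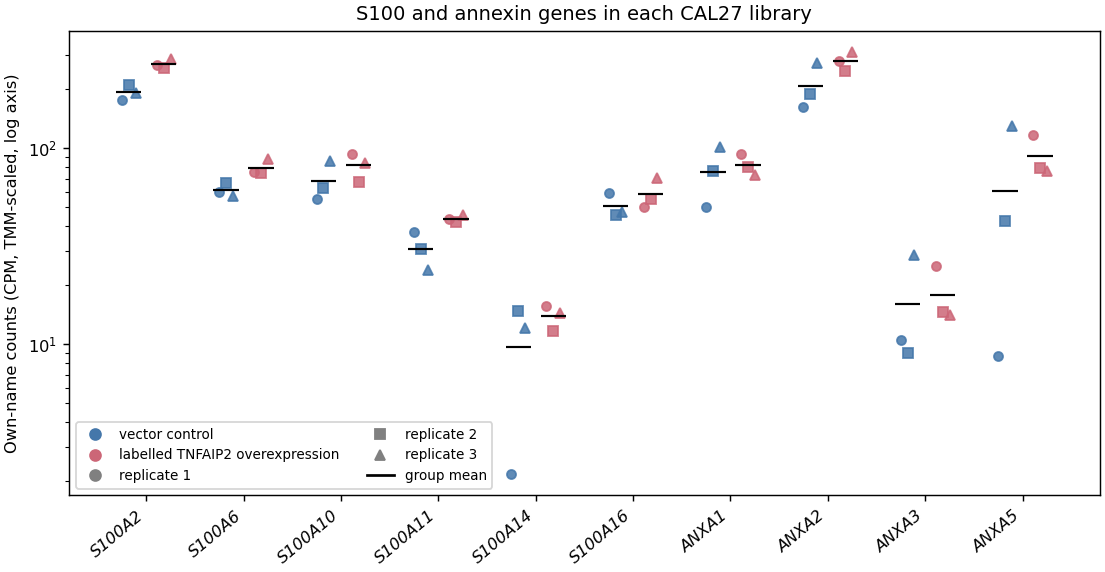
Own-name counts of the 10 genes in each library, as TMM-scaled CPM on a log axis; blue points are vector controls, red points libraries labelled TNFAIP2 overexpression, marker shapes are replicate numbers and bars are group means. S100A2, S100A6 and S100A11 have no overlap between the groups, and ANXA5 spreads from 8.68 to 130 CPM among the controls.

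None of the 10 genes passed the test between the groups, and all 10 had a positive log2 fold change (overexpression-labelled minus control). The values ran from 0.12 to 0.58, and the edgeR adjusted p from 0.830 to 0.941. The same fit called 0 of 11851 genes (percent called 0), and at an unadjusted p below 0.05 it held 1 member, S100A2, where 1.83% of all tested genes lay below that limit and higher. DESeq2 and limma-voom also called 0 members, with 0.0128% and 0.00844% of all genes called. A positive sign alone says little here, because 51.9% of all tested genes, 62.0% of the protein-coding ones and 71.0% of the 5163 protein-coding genes that, like the members, have no opposite feature were positive. The median log2 fold change was 0.43 for the S100 members and 0.28 for the annexin members, beside 0.02 over all tested genes and 0.21 over protein-coding genes with no opposite feature. In bulk RNA, more cells with a transcript and more of it per cell cannot be told apart. Groups that did not overlap were found for 3 of the 10, all higher in the overexpression-labelled libraries, where 5.54% of all tested genes and 7.90% of protein-coding genes with no opposite feature were of that kind. Groups apart in the other direction were found for 4.92% of all tested genes and 1.74% of those protein-coding genes.

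S100A2, the basal keratinocyte S100 protein, held the lowest p of the members. The gene (ENSG00000196754, chromosome 1, 153561108 to 153567890, minus strand, GRCh38) had 178, 211 and 193 CPM in controls 1 to 3 and 266, 258 and 285 CPM in overexpression-labelled libraries 1 to 3. All controls lay below all overexpression-labelled libraries, at means of 194 ± 16.6 and 270 ± 13.8 CPM (SD, n = 3). The log2 fold change was 0.48 (SE 0.19, 95% interval 0.08 to 0.87, edgeR unadjusted p = 0.0195, adjusted p = 0.830), a fold of 1.39. It was 0.46 with the own-strand ratio of each library as a covariate and 0.47 without control replicate 3.

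S100A6, or calcyclin, a calcium sensor abundant in dividing cells, showed the same order of libraries by group. The gene (ENSG00000197956, chromosome 1, 153534599 to 153536244, minus strand) had 59.6, 66.8 and 57.2 CPM in controls and 75.5, 75.2 and 88.4 CPM in the libraries labelled overexpression. No control reached the lowest overexpression-labelled library. This was a log2 fold change of 0.38 (SE 0.23, 95% interval -0.09 to 0.85, edgeR adjusted p = 0.830) and 0.41 with the covariate.

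S100A11, or calgizzarin, which binds the N-terminal tail of ANXA1, had the third pair of groups without overlap. The gene (ENSG00000163191, chromosome 1, 152032506 to 152047907, minus strand) had 37.2, 30.6 and 23.9 CPM in controls and 43.6, 42.2 and 45.5 CPM in the libraries labelled overexpression. The overexpression-labelled libraries lay close together, while control 3 was the lowest of all. The log2 fold change was 0.52 (SE 0.28, 95% interval -0.05 to 1.09, edgeR adjusted p = 0.830), and 0.72 with the covariate. Control 3 has a high own-strand ratio and the lowest S100A11 and S100A6, unlike its place for the annexins below.

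S100A10, the partner of ANXA2, overlapped between the groups. The gene (ENSG00000197747, chromosome 1, 151982915 to 151993859, minus strand) had 54.9, 62.6 and 85.8 CPM in controls and 93.8, 67.6 and 84.4 CPM in the libraries labelled overexpression. Control 3 was above overexpression-labelled libraries 2 and 3. Its log2 fold change was 0.27 (SE 0.24, edgeR adjusted p = 0.843) and turned to -0.05 with the covariate. Without control replicate 1 or 3 it was 0.14 or 0.47, and 0.16 or 0.42 when overexpression-labelled replicate 1 or 2 was left out.

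S100A14 and S100A16, neighbours on chromosome 1 that both belong to the S100 proteins of epithelia, also overlapped. S100A14 (ENSG00000189334, 153614255 to 153616986, minus strand) had 2.17, 14.8 and 12.1 CPM in controls and 15.7, 11.7 and 14.4 CPM in the libraries labelled overexpression. Its lowest value, 6 counts in control 1, set it apart, and the log2 fold change, 0.51 (SE 0.50, edgeR adjusted p = 0.853), became 0.05 without that library and 0.96 without control replicate 2. S100A16 (ENSG00000188643, 153606886 to 153613145, minus strand) had 58.9, 45.8 and 47.5 CPM in controls and 50.2, 55.4 and 70.5 CPM in the libraries labelled overexpression. Its log2 fold change was 0.21 (SE 0.25, edgeR adjusted p = 0.867), 0.33 without control replicate 1 and 0.05 without overexpression-labelled replicate 3.

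Among the annexins, ANXA2 had the most counts. This gene (ENSG00000182718, chromosome 15, 60347134 to 60402883, minus strand), whose product joins membranes to actin and carries plasminogen and tissue plasminogen activator at the cell surface, had 163, 191 and 273 CPM in controls and 278, 249 and 310 CPM in the libraries labelled overexpression. Control 3 lay above overexpression-labelled library 2, so the groups overlapped. With all libraries the log2 fold change was 0.42 (SE 0.21, 95% interval -0.02 to 0.86, edgeR unadjusted p = 0.0613, adjusted p = 0.830). Without control replicate 3 it was 0.65 (SE 0.19) and passed with an edgeR adjusted p of 0.0227, in a fit that called 7.41% of all genes and 4.13% as higher. It was 0.27 without control replicate 1 and 0.13 (SE 0.16) with the covariate. ANXA2 has processed pseudogenes with near-identical sequence, and of these ANXA2P1 held 0 to 1 and ANXA2P2 0 to 4 counts per library, so reads that match several copies may not be placed with certainty.

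ANXA1, lipocortin, the glucocorticoid-induced annexin that signals through formyl peptide receptors, differed by less than the spread between replicates. The gene (ENSG00000135046, chromosome 9, 73151865 to 73170393, plus strand) had 50.2, 76.8 and 101 CPM in controls and 94.1, 80.4 and 73.5 CPM in the libraries labelled overexpression. The controls held both the lowest and the highest value. On the log2 scale the groups differed by 0.12 (SE 0.25, edgeR adjusted p = 0.921), and by -0.14 with the covariate. The difference was -0.11 without control replicate 1, 0.37 without control replicate 3, and 0.01 and 0.19 without overexpression-labelled replicates 1 and 3.

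ANXA5, the phosphatidylserine-binding annexin used to stain dying cells, varied most of all members. The gene (ENSG00000164111, chromosome 4, 121667946 to 121696995, minus strand) had 24, 132 and 440 counts in controls, or 8.68, 42.6 and 130 CPM, and 446, 274 and 288 counts, or 117, 79.8 and 76.7 CPM, in the libraries labelled overexpression. Across the controls the highest value was 14.9 times the lowest, against 1.52 times across the overexpression-labelled libraries. ANXA5's log2 fold change, 0.58 (SE 0.87, 95% interval -1.62 to 2.79, edgeR adjusted p = 0.895), was 0.08 without control replicate 1, 0.37 without overexpression-labelled replicate 1, 1.81 without control replicate 3 and -0.02 with the covariate.

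ANXA3, an annexin with a known part in phospholipid and inositol phosphate metabolism, also spread widely among the controls. The gene (ENSG00000138772, chromosome 4, 78551747 to 78610451, plus strand) had 10.5, 9.03 and 28.6 CPM in controls and 25.1, 14.6 and 14.1 CPM in the libraries labelled overexpression. Control 3 was the highest of all 6 libraries. Its log2 fold change was 0.15 (SE 0.43, edgeR adjusted p = 0.941), turned to between -0.17 and -0.08 when control replicate 1, control replicate 2 or overexpression-labelled replicate 1 was left out, and was 0.87 without control replicate 3 and -0.45 with the covariate. It was 0.31 and 0.30 without overexpression-labelled replicates 2 and 3.

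**Figure D2:**
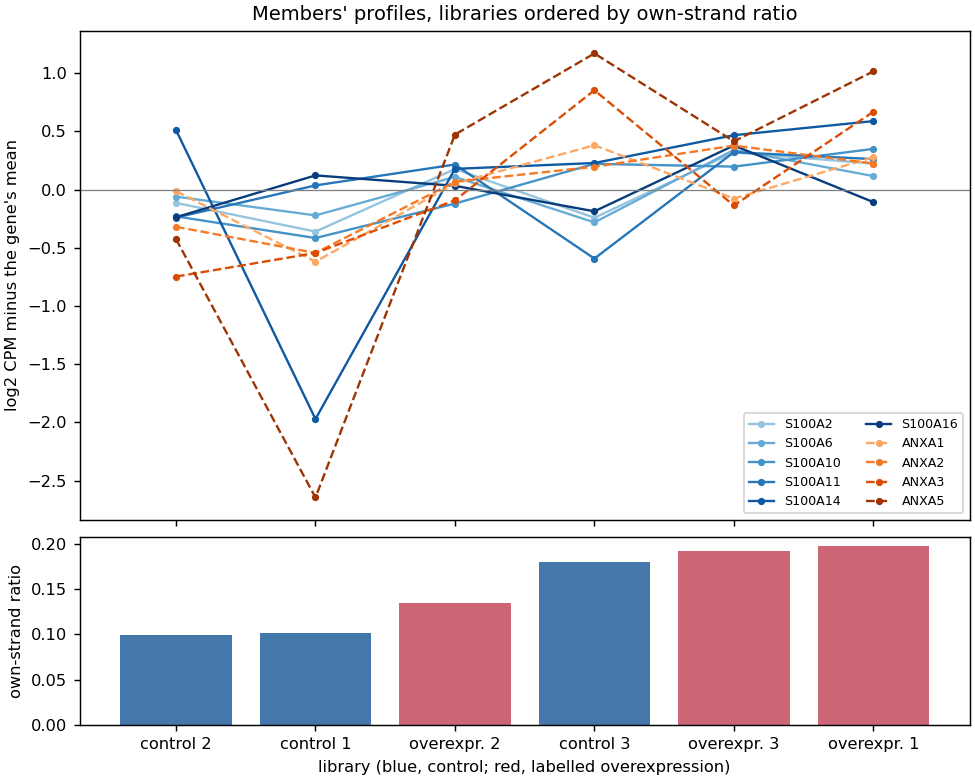
Upper panel, log2 CPM of each gene minus its own mean over the 6 libraries, with S100 genes as solid blue and annexins as dashed orange lines; lower panel, the own-strand ratio of each library, which orders the libraries from left to right. ANXA3 and ANXA5 are highest in control 3 (0.85 and 1.17 on this log2 scale), where S100A11 is lowest at -0.59 and S100A6 is lowest at -0.28.

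Log2 fold changes were positive for 5 of 6 S100 members and 1 of 4 annexins once edgeR took own-strand ratios as a covariate. The sign changed for 4 members: S100A10 (-0.05, SE 0.22), ANXA1 (-0.14, SE 0.24), ANXA3 (-0.45, SE 0.38) and ANXA5 (-0.02, SE 0.72). The 95% interval of each of these 4 spanned 0. The mean ratio was 0.175 ± 0.035 in overexpression-labelled libraries and 0.127 ± 0.046 in controls (SD, n = 3, exact permutation p = 0.2). A change of sign under this covariate was found for 32.1% of all tested genes and 33.7% of protein-coding genes with no opposite feature, and the share of positive values became 48.2% in the former and 50.5% in the latter. The median of the S100 members was then 0.33 and that of the annexins -0.08, beside 0.01 for protein-coding genes with no opposite feature. No member passed in this fit (edgeR adjusted p = 1.00 for each). Whether the S100 and annexin members differ from each other in this respect was not tested.

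**Figure D3:**
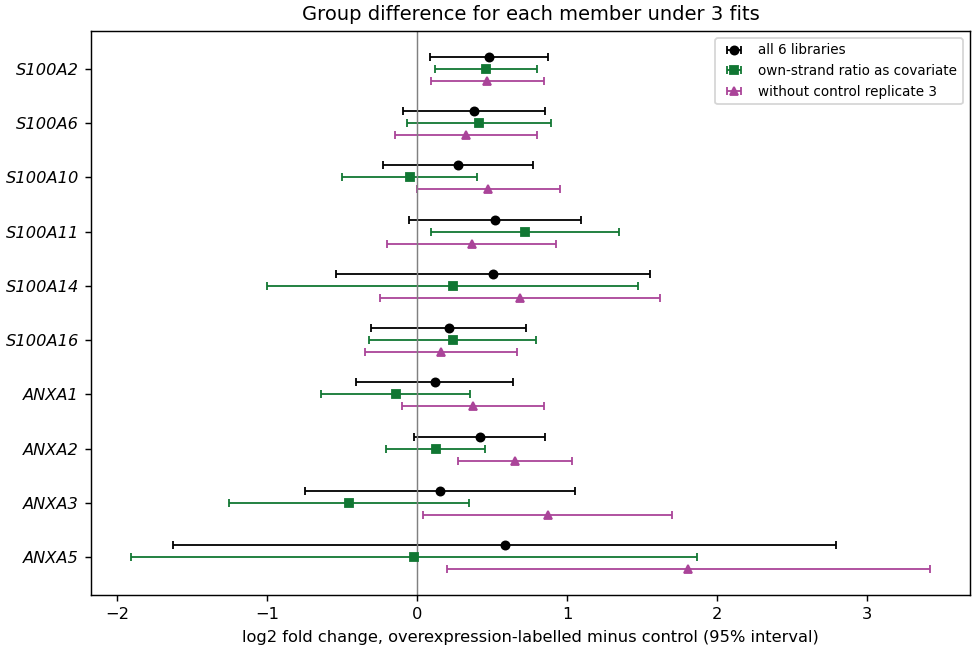
Log2 fold change of each gene with its 95% interval in 3 edgeR fits: all 6 libraries (black), with the own-strand ratio as covariate (green) and without control replicate 3 (purple). S100A2 lies between 0.46 and 0.48 in all 3, while ANXA5 moves from 1.81 to -0.02.

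Summed over the family, the 6 S100 genes took 0.0349, 0.0379 and 0.0438% of all counts in controls 1 to 3 and 0.0596, 0.0507 and 0.0628% in overexpression-labelled libraries 1 to 3. Every overexpression-labelled library was above every control, at means of 0.0577 ± 0.00625% and 0.0389 ± 0.00451% (SD, n = 3). A two-sided exact permutation test gave p = 0.1, the smallest that 3 libraries against 3 allow. S100A2, whose own groups were apart, made up the largest part of this sum, with a mean of 0.0233% of all counts over the libraries. S100A6 and S100A11, also in the sum, had groups apart as well. The sum is thus not a result separate from those of its members. A sum without S100A2 was not tested. The 4 annexins took 0.0208, 0.0280 and 0.0556% in controls and 0.0562, 0.0422 and 0.0506% in the libraries labelled overexpression. Control 3 again lay within the other group, at means of 0.0348 ± 0.0183% in controls and 0.0497 ± 0.00704% in the libraries labelled overexpression (exact permutation p = 0.3). The difference of 0.0149 percentage points was 0.00786 without control replicate 1 and 0.0253 without control replicate 3. ANXA2 made up the largest part of the annexin sum, with a mean of 0.0247% of all counts. Protein-coding genes as a whole held 50.3, 50.2 and 56.0% of counts in controls and 57.6, 53.4 and 56.4% in the libraries labelled overexpression, so the denominator of these shares also moved.

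A ratio of 2 genes within a library needs no scaling. The log2 ratio of S100A10 to ANXA2 counts, subunits of one complex, was -1.57, -1.61 and -1.67 in controls and -1.57, -1.88 and -1.87 in the libraries labelled overexpression. The difference of -0.16 did not pass a two-sided exact permutation test (p = 0.3), and was -0.265 without overexpression-labelled replicate 1 and -0.1075 without overexpression-labelled replicate 2. The ratio of S100A11 to ANXA1, a binding pair, was -0.43, -1.32 and -2.08 in controls and -1.11, -0.93 and -0.69 in the libraries labelled overexpression, which lay inside the range of the controls. The difference of 0.37 (exact permutation p = 0.6) was -0.03 without control replicate 3.

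Other S100 genes were few. Of 14 in the list 10 were in the table and 3 had enough counts to test, with 0 positive, 3 negative and 0 past the threshold. S100A9, a subunit of the neutrophil and stressed keratinocyte protein calprotectin, had 57.0 ± 14.8 CPM in controls and 55.4 ± 15.98 CPM in the libraries labelled overexpression. Its partner S100A8 had 4.55 ± 0.141 and 2.51 ± 1.52 CPM, at 5 to 16 counts per library. In TMM-scaled CPM the groups of S100A8 did not overlap and the controls were higher (log2 fold change -0.84, SE 0.71). Its unscaled counts did overlap, with 13, 14 and 15 in controls and 7, 5 and 16 in the libraries labelled overexpression. The gap between the groups thus depends on the scaling. S100A1 had 36.4 ± 11.8 and 32.5 ± 5.49 CPM, and shares 235 exonic bases with S100A13 on the other strand, which had 3.20 ± 0.818 and 2.50 ± 1.69 CPM and was not tested. It also shares 320 exonic bases with a lncRNA on the other strand (ENSG00000272030). How strand was treated in counting is not given in the sources used here, so the counts may not separate these genes. Which of them is expressed more cannot be read from these CPM.

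Of 9 other annexins, 6 were tested, 4 positive and 2 negative with 0 past the threshold (median log2 fold change 0.20). ANXA11, which binds S100A6, had 67.1 ± 10.7 CPM in controls and 78.4 ± 10.2 CPM in the libraries labelled overexpression. ANXA7, which binds the calcium sensor sorcin, had 16.5 ± 2.64 and 21.7 ± 2.24 CPM, and its groups did not overlap. The near-identical copies ANXA8 and ANXA8L1 had 33.7 ± 3.85 and 31.1 ± 4.05 CPM, and 12.7 ± 3.56 and 14.3 ± 1.85 CPM, and their reads may not be placed with certainty.

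Partners of the members had 9 of 11 positive values, a median log2 fold change of 0.14 and 0 past the threshold. AHNAK, the scaffold bound by the ANXA2 and S100A10 complex, had 204, 183 and 380 counts in controls and 608, 421 and 520 in the libraries labelled overexpression. All controls were below all overexpression-labelled libraries, at 81.6 ± 27.4 and 140 ± 18.2 CPM. That order held for 2 of the 11 partners and for 5.54% of all tested genes. On the log2 scale the difference for AHNAK was 0.78 (SE 0.24, edgeR adjusted p = 0.830), and 0.42 with the covariate. MYH9, the non-muscle myosin heavy chain that S100 proteins bind, had 1754 ± 378 and 1940 ± 163 CPM. The lysosomal protease gene CTSB, whose product binds the ANXA2 and S100A10 complex, had 317 ± 103 and 349 ± 79.0 CPM, and BSG, which encodes a receptor of S100A9, had 198 ± 30.3 and 205 ± 6.37 CPM.

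Membrane repair genes had 15 of 19 positive values (median 0.17) and 0 past the threshold. The calpain gene CAPN2 had 185 ± 55.2 CPM in controls and 263 ± 42.3 CPM in the libraries labelled overexpression (log2 fold change 0.50, SE 0.22, edgeR adjusted p = 0.830), and 0.13 with the covariate. CAPN1, the other large calpain subunit gene, had 237 ± 37.3 and 263 ± 11.9 CPM. The caveolin gene CAV1 had 229 ± 53.3 and 269 ± 36.3 CPM, and VPS4A, whose ATPase disassembles the membrane-cutting ESCRT-III, had 231 ± 32.9 and 226 ± 26.6 CPM.

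Other EF-hand genes had 13 of 18 positive values (median 0.25) and 0 past the threshold. The actin-bundling protein gene EFHD2 had 310 ± 71.5 CPM in controls and 337 ± 21.1 CPM in the libraries labelled overexpression. MYL6, a myosin light chain gene, had 346 ± 41.2 and 283 ± 12.2 CPM, and its groups did not overlap. SDF4 had 95.9 ± 19.9 and 99.2 ± 18.5 CPM, and the calmodulin gene CALM3 had 63.4 ± 17.3 and 80.5 ± 10.7 CPM. With the covariate, 2 of 3 other S100 genes, 3 of 6 other annexins, 7 of 11 partners, 10 of 19 membrane repair genes and 7 of 18 EF-hand genes were positive. Groups apart, with overexpression-labelled libraries higher, numbered 0 of 3 other S100 genes and 1 of 6 other annexins. They numbered 2 of 11 partners, 3 of 19 membrane repair genes and 1 of 18 EF-hand genes. Groups apart and lower numbered 1, 1, 0, 1 and 2 in the same lists. Of all tested genes, 5.54% were apart and higher and 4.92% apart and lower.

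**Figure D4:**
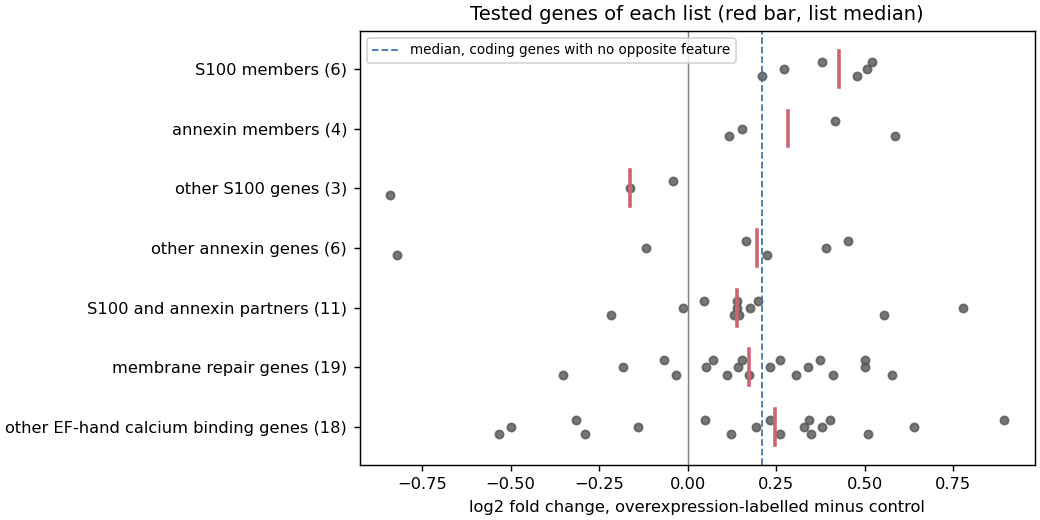
Log2 fold change of every tested gene in the S100 and annexin members and the 5 related lists (number of genes in brackets), with a red bar at each list's median. The dashed line is the median of 0.21 over protein-coding genes with no opposite feature. The 5 related lists were not limited to such genes, and the median over all tested protein-coding genes was 0.13. The S100 members lie at or to the right of the dashed line, the 3 other S100 genes lie to its left, and the remaining lists spread to both sides.

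The genes whose profile over the 6 libraries lay closest to that of S100A2 were STX17, DEK and PNN, with a root mean square difference of 0.074, 0.077 and 0.079 in centred log2 CPM among 9923 genes of at least 5 CPM. For ANXA2 they were CCNI, DDR1 and SWAP70, at 0.054, 0.062 and 0.064. Over so few libraries such closeness is a description only.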

How the data were processed

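RNA-seq of 6 CAL27 libraries was analysed, 3 vector controls and 3 labelled TNFAIP2 overexpression, grouped by title. The authors deposited raw read counts for each gene as whole numbers, without normalization, and columns were matched through the labels. Libraries were made with a stranded mRNA kit, per the labels' protocols. The submitters' processing notes list HISAT2 2.2.0, HTSeq 0.13.5 and Trim Galore 0.6.4, with the builds GRCh38 and hg38. The annotation release and how HTSeq treated strand: not given in the sources used here.

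Counts were fitted with edgeR 4.0.16 in R 4.3.3 (filterByExpr by group, TMM scaling, robust quasi-likelihood fit, glmQLFTest), with Benjamini-Hochberg adjustment over all 11851 tested genes and a threshold of 0.05. Standard errors come from the F statistic, and 95% intervals cover the spread between libraries. The fit was also run on simulated data, in which no library departed from its group as control 3 does. That run therefore does not cover this feature of the data. Exon models were those of GENCODE release 29, present for 22828 of 23384 features. The own-strand ratio used features with at least 90% of their exonic bases opposite a protein-coding gene and at least 60 counts in all, with 0.5 added to each count, as in the gene ratios. Shares and ratios were tested with exact permutation tests (Python 3.11.15, SciPy 1.17.1). Alternatives were DESeq2 1.42.0, limma-voom (limma 3.58.1), other scalings and filters, a replicate block, the own-strand ratio as covariate and leaving out each library.

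The members, lists and tests were chosen with earlier results of these data known. Named genes were the 10 members, the features opposite them, TNFAIP2, from each list the genes past the threshold or else the 4 with the highest mean CPM, and the 3 profiles closest to the S100 and the annexin member with the most CPM. PMEL and the pseudogenes of ANXA2 were named outside this rule, after their values were seen.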

Additional observations from a re-analysis of the deposited data

How the results depend on the processing

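All 10 members stayed positive with other scalings (DESeq2 size factors or library totals, where the median of all genes moved to 0.18 and that of the members to 0.56), with other filters, in DESeq2, in limma-voom and with the replicate block. ANXA5 was 1.21 in limma-voom and 1.11 with the block, ANXA3 0.27 and 0.29, and S100A14 0.81 in limma-voom. With the own-strand ratio as covariate 6 were positive, and S100A10 (-0.050), ANXA1 (-0.14), ANXA3 (-0.45) and ANXA5 (-0.017) changed sign. Over 80 member values under these alternatives, 76 kept their direction and their side of the threshold. Leaving out 1 library in turn kept 55 of 60. The number of positive members then ran from 8 to 10 and that of called members from 0 to 1, the one being ANXA2 without control replicate 3. The log2 fold change of ANXA1 ran from -0.11 to 0.37, of ANXA2 from 0.27 to 0.65, of ANXA3 from -0.17 to 0.87 and of ANXA5 from 0.08 to 1.81, and that of S100A2 from 0.42 to 0.57. The S100A11 to ANXA1 log2 ratio ran from -0.032, without control replicate 3, to 0.79. The difference in the S100 share, 0.0189 percentage points, ran from 0.0163 to 0.0223, and was 0.0134 over TMM-scaled library sizes and 0.0290 over protein-coding counts.

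Over all genes, edgeR called 3 without a filter on low counts, DESeq2 called 3 and limma-voom 1, against 0 in the reported fit, and between 0 and 922 when 1 library was left out, the highest without control replicate 3. None of the genes called with all libraries was a member. The cause of these changes was not tested. With the replicate number as a replicate block, edgeR called 0 genes and 0 members. Same-numbered libraries had correlations of -0.25, 0.15 and -0.05 in their deviations from the group means, so the numbers were not taken to pair them. For the single values the sign-flip form of the replicate block gave p = 0.25 for the S100 share and the S100A10 to ANXA2 ratio, the smallest that 3 pairs allow, p = 0.5 for the annexin share and p = 0.75 for the S100A11 to ANXA1 ratio (exact permutation). The own-strand share at the members and the ratios with opposite-strand counts could not be computed, because no member had an opposite feature of 50 shared bases.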
